A study of Mus musculus with 22 samples.

Results

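The replication-dependent histone genes supply the bulk histones that package newly made DNA. They were taken as the genes on chromosomes 1 to 19 whose symbols begin with Hist1, Hist2, Hist3 or Hist4, or with H1f, H2ac, H2bc, H3c or H4c in the newer naming, which gave 76 of 47042 annotated genes (70 by the current symbol and 6 by an older one). Of the 76, 71 are protein-coding and 5 are pseudogenes. There are 11 linker histone (H1) genes, 21 H2A, 19 H2B, 12 H3 and 13 H4 genes. Hist1 on chromosome 13 holds 57 of them, Hist2 on chromosome 3 holds 10, Hist3 on chromosome 11 holds 3 and Hist4 on chromosome 6 holds 1. The symbol rule also took 5 H1 genes outside the clusters (H1f0, H1f7, H1f8, H1f10 and H1f11-ps), some of which are made independently of replication.

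Histone H3 acetylated at lysine 27 (H3K27ac, a mark of active promoters and enhancers), histone H3 trimethylated at lysine 9 (H3K9me3, a mark of heterochromatin) and HA-tagged artificial factors were mapped by ChIP-seq in C57BL/6 mouse cells reprogrammed from embryonic fibroblasts. C2 induced pluripotent stem (iPS) cells were made with the zinc-finger artificial transcription factors ZFATF1, ZFATF2 and ZFATF3 together with Sox2, Klf4 and c-Myc. C3 iPS cells were made with ZFATF1, ZFATF2 and ZFATF4 and the same 3 cofactors, and OSKM iPS cells with Oct4 and those cofactors. The labels give 100 nM 4-hydroxytamoxifen, which acts on an Oct4-linked MerCreMer recombinase and its fluorescent reporter, for the iPS samples. Each line had 2 libraries per mark, and whether these came from separate clones or cultures is not labelled. HA was mapped in 2 libraries of C2 cells at day 20, when the artificial factors were still made and reprogramming was incomplete, and in 2 libraries of control cells given an empty vector with Sox2, Klf4 and c-Myc (Empty). C2 and OSKM histone libraries shared their inputs while C3 had its own, so line and input cannot be told apart for C3. Factor set goes with line, and ChIP signal per region cannot tell fewer marked cells from less mark per cell.

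Replication-dependent histone genes lack introns, and their mRNAs end in a stem-loop bound by SLBP in place of a poly(A) tail. They are switched on together at the start of S phase by NPAT, a substrate of cyclin E-CDK2, in nuclear bodies that gather at the clusters. Each class has its own promoter elements: HINFP reads an element of H4 genes, the POU factor OCT1 (Pou2f1) reads the octamer of H2B genes, and NF-Y reads the CCAAT box. The octamer is also the class of site that Oct4 recognises, the factor which C2 and C3 cells were made without. Linker histones bind the DNA between nucleosomes, and the core histones H2A, H2B, H3 and H4 form the nucleosome itself.

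The promoters below show how the classes differ. For each class they belong to the gene with the highest H3K27ac that had a promoter entry (H2ac5-ps, the highest H2A gene, had none). They come from RefSeq (GRCm38.p6), run from 250 bases before to 50 bases after the annotated start, and read 5′ to 3′ on the gene's own strand. Capitals mark matches, on either strand, to 5 motifs: the CCAAT box (CCAAT, or ATTGG on the opposite strand), the TATA box (TATAAA), the octamer (ATTTGCAT), the H1 box (AAACACA) and the core of the H4 element (GGTCC). The H1f2 promoter lies at chr13:23738557-23738856 on the plus strand, H2ac10 at chr13:23533625-23533924 on the plus strand, H2bc3 at chr13:23746484-23746783 on the plus strand, H3c3 at chr13:23745472-23745771 on the minus strand and H4c6 at chr13:23551619-23551918 on the minus strand.
H1f2: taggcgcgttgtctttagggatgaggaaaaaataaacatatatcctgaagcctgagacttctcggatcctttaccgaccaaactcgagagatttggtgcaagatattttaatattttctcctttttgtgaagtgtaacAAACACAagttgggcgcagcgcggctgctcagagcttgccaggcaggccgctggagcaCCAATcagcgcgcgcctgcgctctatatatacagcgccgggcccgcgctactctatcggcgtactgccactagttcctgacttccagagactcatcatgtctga
H2ac10: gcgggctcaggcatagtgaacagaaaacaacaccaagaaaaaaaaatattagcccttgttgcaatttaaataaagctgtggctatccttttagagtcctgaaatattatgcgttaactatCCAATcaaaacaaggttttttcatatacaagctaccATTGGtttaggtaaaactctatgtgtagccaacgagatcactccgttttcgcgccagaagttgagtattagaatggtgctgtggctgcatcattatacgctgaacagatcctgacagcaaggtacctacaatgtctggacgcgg
H2bc3: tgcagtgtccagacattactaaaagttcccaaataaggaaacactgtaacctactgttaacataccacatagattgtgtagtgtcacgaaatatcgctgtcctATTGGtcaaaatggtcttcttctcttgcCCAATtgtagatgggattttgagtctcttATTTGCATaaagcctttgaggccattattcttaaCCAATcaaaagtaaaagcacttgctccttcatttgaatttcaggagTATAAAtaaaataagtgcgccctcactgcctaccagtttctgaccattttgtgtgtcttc
H3c3: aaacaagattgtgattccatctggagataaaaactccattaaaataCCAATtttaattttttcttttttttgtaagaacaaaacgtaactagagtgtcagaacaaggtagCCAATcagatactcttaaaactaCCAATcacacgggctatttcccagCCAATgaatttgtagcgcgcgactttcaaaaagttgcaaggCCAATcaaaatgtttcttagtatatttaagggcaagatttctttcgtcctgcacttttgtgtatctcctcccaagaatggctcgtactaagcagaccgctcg
H4c6: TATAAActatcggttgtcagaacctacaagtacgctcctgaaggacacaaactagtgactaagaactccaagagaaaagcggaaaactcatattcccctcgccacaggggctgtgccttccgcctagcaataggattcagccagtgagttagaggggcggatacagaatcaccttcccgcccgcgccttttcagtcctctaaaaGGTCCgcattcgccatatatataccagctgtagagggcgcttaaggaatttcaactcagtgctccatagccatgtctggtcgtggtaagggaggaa

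The H1f2 promoter held an H1 box and a CCAAT box. The H2bc3 promoter held an octamer, 3 CCAAT boxes and a TATA box, and the H3c3 promoter held 5 CCAAT boxes. H2ac10 held 2 CCAAT boxes, whereas H4c6 had no CCAAT box and carried the H4 core and a distant TATAAA match. Among the 67 promoter entries of 66 histone genes, a CCAAT box was present in 18 of 18 for H2A, 17 of 17 for H2B and 10 of 10 for H3. It was in 7 of 10 for H1 and 3 of 12 for H4, against 37.4% of all 32851 promoters. The octamer was in 7 of 18 H2A and 7 of 17 H2B promoters and in none of the 32 others, against 1.74% of all promoters. A TATA box was in 52.2% of the histone promoters and 13.6% of all promoters. The H1 box was in 5 of 10 H1 promoters, at median position -115 from the start, and in 7.18% of all promoters. GGTCC was in 11 of 12 H4 promoters, at median position -46, and in 45.5% of all promoters, so these short letters occur widely. A match of letters is a description and not a measured site.

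**Figure D1:**
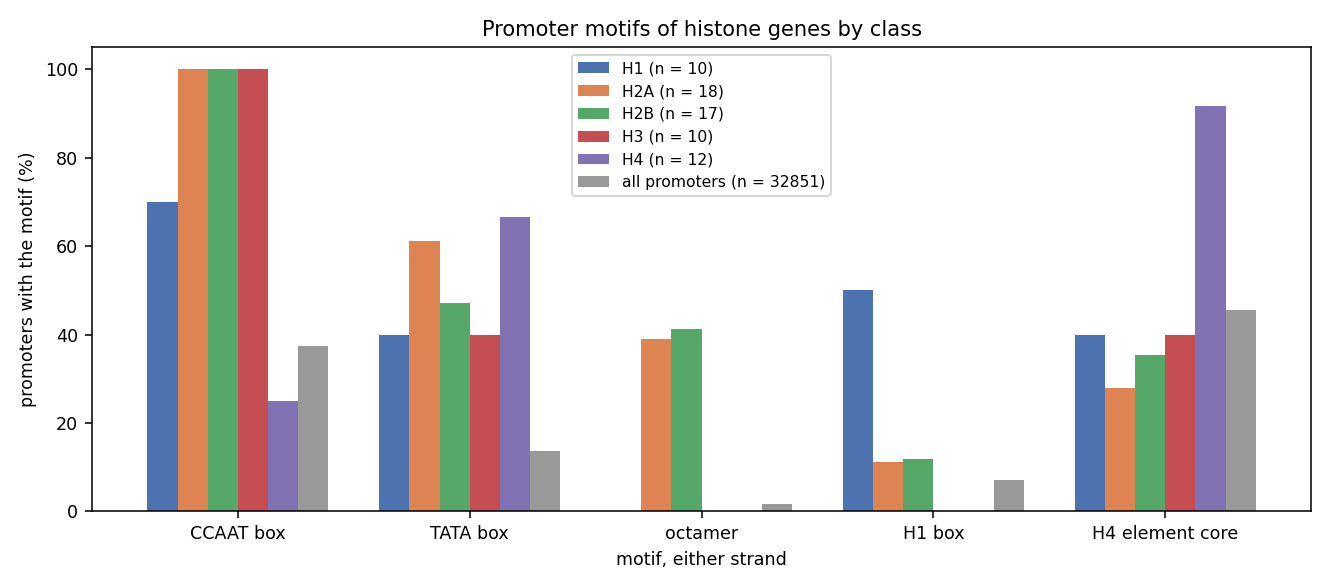
Percentage of promoters that hold each of 5 motifs on either strand (y axis, %), for the 5 histone classes and for all RefSeq promoters (legend with the number of promoters). The CCAAT bars reach 100% for H2A, H2B and H3, and the octamer bars appear for H2A and H2B among the classes, above 1.74% for all promoters.

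Each gene was assigned, of the deposited tables' regions no farther than 2500 bp from it, the one with the highest mean. All 76 genes had an H3K27ac region that passed the filter on low values (the lowest 25% of regions by mean left out). Because the genes are crowded, these were 37 distinct regions in the table of C2 and OSKM, of which 22 served at least 2 genes and the most crowded served 5. The regions were 485 to 12924 bp wide (median 3104 bp). For 41 of 76 genes the region overlapped the gene, and for 24 of the 66 genes with a known start it held the start. Genes that share a region have the same values, and region counts are given beside gene counts for that reason. Many core histone genes of a class have closely similar coding sequences, and the handling of reads with several placements is not given in the sources used here. The division of signal among such copies is therefore uncertain.

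In the table of C2 and OSKM, 53 of 76 genes had a region whose mean exceeded that of 90% of regions, and 7 had one below the middle of the ranking. Taking the highest region near each gene favours a high rank, and wide regions hold more reads. Of all regions in that table, 22.8% held 1 read in every library. The share over all genes is not given here, so these ranks are a description of the chosen regions. Over the distinct regions the median level was 70.3 normalized reads per kb in C2 and 121 per kb in OSKM. In the separately normalized table of C3 and OSKM it was 104.5 per kb in C3 and 130.6 per kb in OSKM. By class, the median per kb was 57.6 in C2 and 115 in OSKM for H1, 72.4 and 121 for H2A, 59.0 and 110.4 for H2B, 76.7 and 148 for H3, and 66.1 and 123 for H4, with C2 given before OSKM each time. The class medians lay close to each other within a line, and for each class the C2 median was below the OSKM median. The highest level per kb was at H4f16 in C2 (149) and at H4c14 in OSKM (256). The lowest was at the shared region of H2bc23, H2ac23 and H4c17, near the table's minimum of 1 read per library. A called H3K27ac peak nevertheless lay near each of these genes in every H3K27ac library, so the low values do not show that the mark is absent. Why the values and the peaks differ was not tested.

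**Figure D2:**
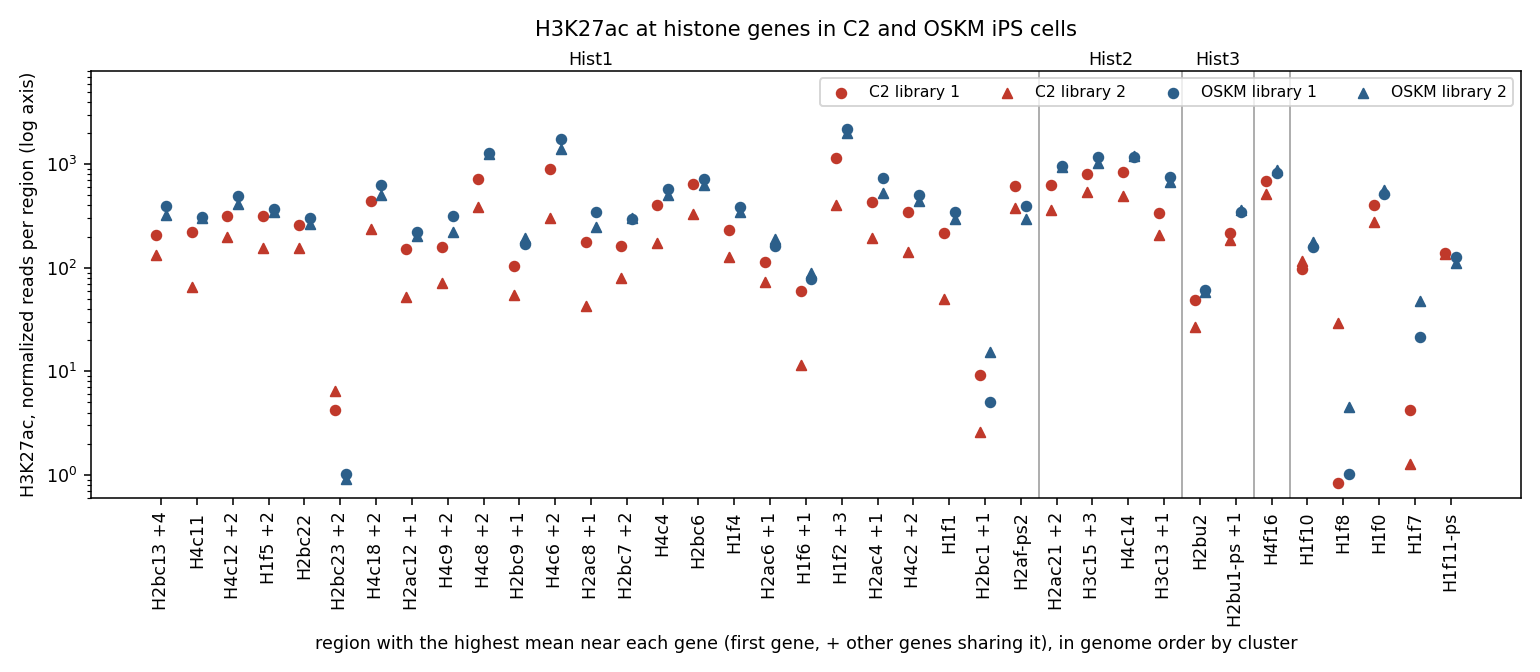
H3K27ac in normalized reads per region (y axis, log scale) for each library of C2 (red) and OSKM (blue) at the 37 distinct regions with the highest mean near the 76 histone genes, ordered along the genome by cluster (x axis; the 5 regions after Hist4 belong to H1 genes outside the clusters). Both C2 points lie under both OSKM points at 31 of the 37 regions, and C2 library 2 is the lowest point at most of them.

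In C2 iPS cells, 22 of the 76 histone genes (8 distinct regions) fell in H3K27ac relative to OSKM iPS cells and none rose (limma on log2 of normalized reads plus 1, Benjamini-Hochberg adjusted p under 0.05). Over all genes with a tested region, 9.89% were called lower and 3.05% higher. Both C2 libraries were below both OSKM libraries at 67 of 76 genes (31 of 37 regions), against 49.1% of all genes. The median log2 fold change was -1.08 over the histone genes and -0.33 over all genes tested. With quantile-normalized values the medians were -0.71 and -0.06, and with libraries centred to equal medians they were -1.19 and -0.44, so the histone genes lay 0.66 and 0.75 below all genes on the log2 scale. The fold change was negative for 70 of 76 genes, and 62 had an unadjusted p under 0.05. For both counts the shares over all genes are not given here, so they are not read as particular to the histone genes.

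The number of calls depended on the setting. With edgeR's quasi-likelihood test on the recovered reads 36 histone genes were lower, all 22 among them (15.4% of all genes), and by the authors' deposited FDR 3 were lower (5.24% of all genes). With quantile-normalized values none was called (2.18% of all genes). C2 library 2 had the fewest reads in the regions, 7033486 against 12943968 in C2 library 1 and 12400030 and 13988581 in the OSKM libraries. After removal of duplicates it kept 29774623 tags, against 33389033 in C2 library 1 and 29351874 and 28947967 in OSKM. Its peaks had a median fold enrichment of 3.62, against 4.201 in C2 library 1 and 4.489 and 4.501 in OSKM. They overlapped 19 histone genes, against 64 in C2 library 1 and 70 and 66 in OSKM. What part this library's enrichment has in the lower C2 values was not tested. The median log2 fold change over the histone genes was -0.57 without C2 replicate 2 and -1.46 without C2 replicate 1. It was -0.97 without OSKM replicate 1 and -1.16 without OSKM replicate 2. Of the 22 genes, 5 remained called whichever of the 4 libraries was left out.

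By class, 6 of 12 H3 genes, 7 of 19 H2B, 6 of 21 H2A, 2 of 11 H1 and 1 of 13 H4 genes fell. The class medians were alike: -1.07 for H1, -0.98 for H2A, -0.98 for H2B, -1.18 for H3 and -1.08 for H4. Whether classes differ from each other was not tested, since the same regions serve several classes. By cluster, 17 of 57 Hist1 genes fell (median -1.11), as did 2 of 10 Hist2 genes (-0.93) and 2 of 3 Hist3 genes (-0.80). The single Hist4 gene was at -0.51 and was not called, and it shares its region with the variant gene H2aj. Of the 5 H1 genes outside the clusters, only H1f7 was called (median of the 5, -0.65).

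By total normalized reads, though not per kb, the strongest histone region was chr13:23736946-23746691, which covers H1f2, H3c3 and H2ac5-ps and ends 43 bp from H2bc3. These genes encode a somatic linker histone (H1f2), a replication-dependent H3 (H3c3) and an H2B (H2bc3), and their promoters are printed above except for the H2A pseudogene. H3K27ac there was 1148 and 404 normalized reads in C2, against 2165 and 2006 in OSKM. Both C2 libraries lay below both OSKM libraries, but the C2 libraries also lay far apart. The log2 fold change was -1.61 ± 0.42 (SE; limma adjusted p = 0.0480). Without OSKM replicate 1 the adjusted p was 0.0548 in the same limma fit, and without C2 replicate 2 the log2 fold change was -0.86.

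The region of H4c8, H2ac10 and H3c8, at chr13:23529042-23535322, had 712.8 and 383.6 normalized reads in C2, against 1295 and 1245 in OSKM. The OSKM libraries were close together and above both C2 libraries, and the log2 fold change was -1.28 ± 0.29 (SE; limma adjusted p = 0.0337). H4c8 was the single H4 gene called. In Hist2, the region at chr3:96265946-96269580 covers H3c13, an H3 gene, and ends 120 bp from H2bc18, an H2B gene. It had 339.6 and 209.1 normalized reads in C2, against 750.7 and 676.3 in OSKM. The groups were separated by more than the spread within either, with a log2 fold change of -1.42 ± 0.26 (SE; limma adjusted p = 0.0198). In the authors' deposited table the same region has a log2 fold change of -1.38 and an FDR of 0.0260.

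The region with the highest mean near H2bc7, H2ac7 and H3c4, which lies 1612 bp from H2bc7 and 904 bp from H2ac7, had 163.9 and 79.6 normalized reads in C2, against 293.6 and 303.9 in OSKM. Its log2 fold change was -1.38 ± 0.33 (SE; limma adjusted p = 0.0375), and with that of H3c13 and H2bc18 it was called whichever library was left out. The region of H2bc9 and H3c7 had 103.4 and 55.2 normalized reads in C2, against 170.7 and 194.4 in OSKM (log2 fold change -1.26, limma adjusted p = 0.0469). A pair of further called regions also showed no overlap between the groups. The region of H2bc13, H2ac13, H3c10, H2ac14 and H2bc14 had 206.8 and 133.4 normalized reads in C2, against 395.2 and 326.8 in OSKM (log2 fold change -1.11, limma adjusted p = 0.0362). The Hist3 region of H2bu1-ps and H2aw had 218.6 and 187.3 normalized reads in C2, against 347.4 and 358.7 in OSKM (log2 fold change -0.80, limma adjusted p = 0.0446). The C2 libraries agreed best with each other at this Hist3 region among the 8 called ones.

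H1f7, a linker histone gene of spermatids on chromosome 15, had the largest fold change of the called genes on very few reads. It had 4.203 and 1.28 normalized reads in C2, against 21.3 and 47.5 in OSKM (log2 fold change -3.26 ± 0.86 SE, limma adjusted p = 0.0493). In recovered reads this is 5 and 1 in C2, where 1 is the table's minimum and may stand for no reads, and 21 and 52 in OSKM, a depth-adjusted ratio of 0.0868 with an exact 95% interval of 0.0309 to 0.198 that covers counting error only. The groups did not overlap, but the call was lost without C2 replicate 2 and without either OSKM replicate, with limma adjusted p-values of 0.102 to 0.351.

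Other strong regions had similar fold changes and missed the threshold. The region of H4c6, H1f3 and H3c6 had 901.1 and 301.5 normalized reads in C2, against 1753 and 1411 in OSKM (log2 fold change -1.59, limma adjusted p = 0.0555). H1f1, another somatic linker histone gene, had 216 and 50.0 normalized reads in C2, against 346.4 and 298.5 in OSKM (log2 fold change -1.62, limma adjusted p = 0.0982). In both, the ratio between the C2 libraries was larger than that between either OSKM library and C2 library 1. H4c14, the Hist2 H4 gene, had 840.6 and 495.2 normalized reads in C2, against 1178 and 1197 in OSKM (log2 fold change -0.88, limma adjusted p = 0.0730). The highest region of H2bc6 had 648.9 and 333.6 normalized reads in C2, against 723.3 and 628 in OSKM (log2 fold change -0.53, limma adjusted p = 0.287). A lower-ranked region of H2bc6, chr13:23586052-23587458, overlaps a promoter entry of this gene and was called lower in C2. It had 179.9 and 139.8 normalized reads in C2, against 369.8 and 377.9 in OSKM (log2 fold change -1.23, limma adjusted p = 0.0186).

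Of the 76 genes, 6 had a positive fold change, none of them called: H2af-ps2, H2bc23, H2ac23, H4c17, H1f8 and H1f11-ps. H2af-ps2, an H2A pseudogene far from the other Hist1 genes, had 611.1 and 381.1 normalized reads in C2, against 397.2 and 296.6 in OSKM. The groups overlapped there (log2 fold change 0.49, limma adjusted p = 0.273). The region of H2bc23, H2ac23 and H4c17 had 4.203 and 6.42 normalized reads in C2, against 1.02 and 0.913 in OSKM, where the OSKM values are the table's minimum of 1 read. Since both OSKM libraries had a called H3K27ac peak near these genes, the sign there is uncertain. H1f8, a linker histone of oocytes, had 0.841 and 29.5 normalized reads in C2, against 1.02 and 4.56 in OSKM, so that a single C2 library set its sign. H1f11-ps had 140.4 and 137 normalized reads in C2, against 127 and 110.4 in OSKM (log2 fold change 0.23, limma adjusted p = 0.552).

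The testis-type genes H2bc1 and H2ac1, which serve spermatogenic cells, shared a region with 9.25 and 2.57 normalized reads in C2, against 5.08 and 15.5 in OSKM, and the groups overlapped (log2 fold change -0.73, limma adjusted p = 0.640). The testis-type linker gene H1f6 shares its region with H4c3, so that its 59.7 and 11.6 normalized reads in C2, against 77.2 and 88.5 in OSKM, cannot be given to either gene alone (log2 fold change -1.60, limma adjusted p = 0.154).

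Called decreases were frequent among high regions in general. Of the 10096 regions in the top 10% by mean, 22.1% were called lower, with a median log2 fold change of -0.53 (-0.04 with quantile-normalized values). Of the 42 histone genes whose region was in that group, 11 were called lower. The median over these 42 genes was -0.98 (-0.48 with quantile-normalized values). Counting every region near the histone genes and not the highest alone, 12 of 97 tested regions were lower and none was higher, against 5.38% of all regions called lower. The fold change was negative at 90 of the 97, and the share over all regions is not given here.

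**Figure D3:**
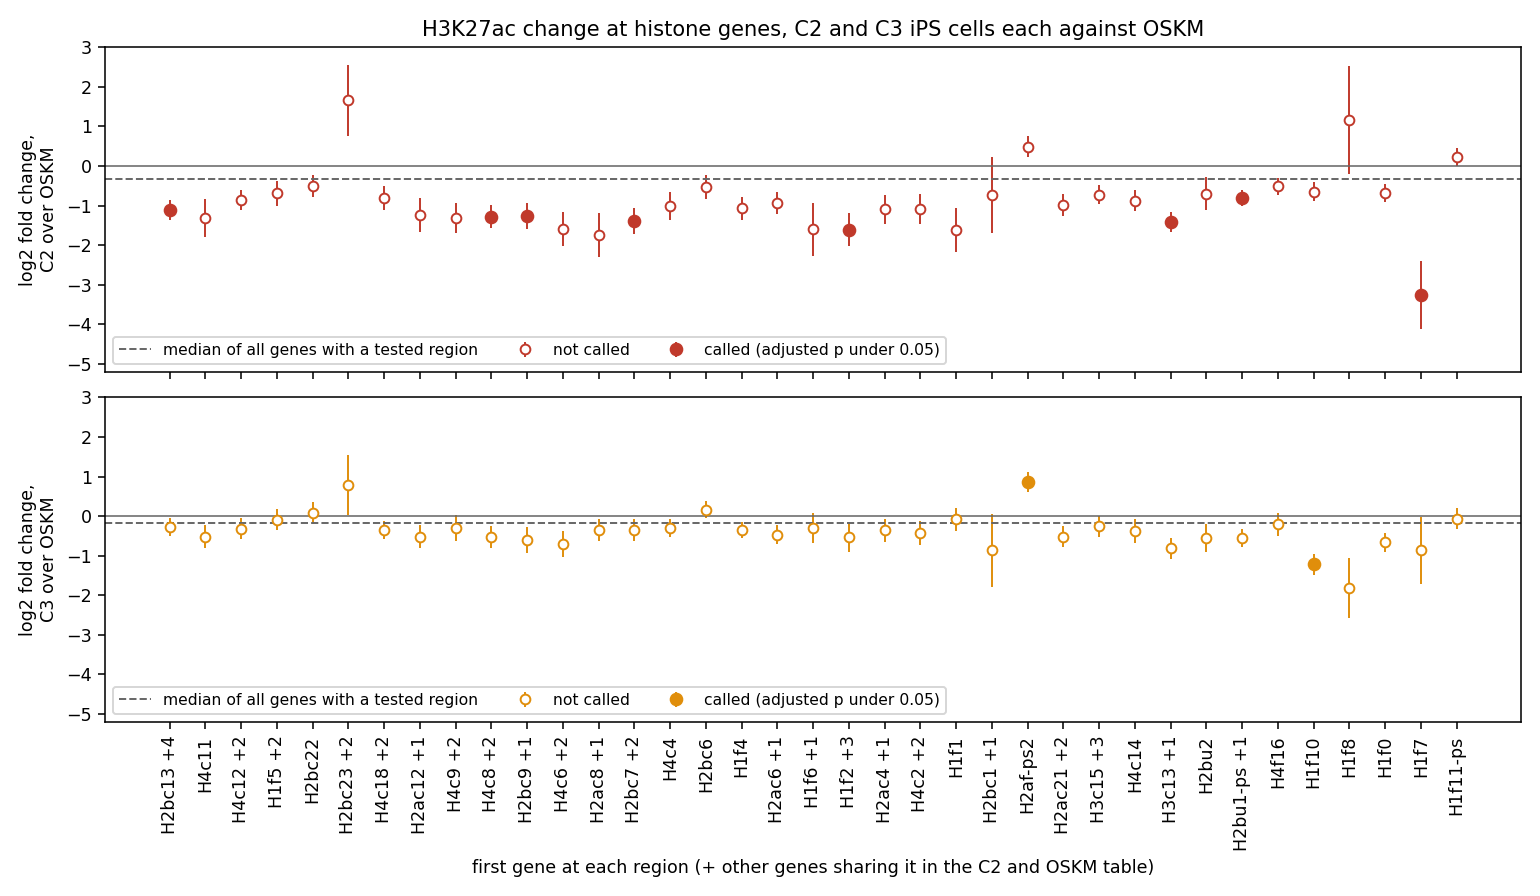
Log2 fold change of H3K27ac (y axis) with its standard error (bars) at the region of each histone gene, for C2 over OSKM (upper panel) and C3 over OSKM (lower panel), in genome order by cluster. Filled points have a limma adjusted p under 0.05, and the dashed line is the median over all genes with a tested region (-0.33 in the upper panel and -0.17 in the lower). Most upper points sit near -1, while most lower points lie between 0 and -1.

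In C3 iPS cells, relative to the same OSKM libraries, 1 of 76 histone genes fell and 1 rose, neither of them among the 22 called in C2, against 8.82% of all genes called lower and 8.84% called higher. By unadjusted p under 0.05, 7 were lower and 1 was higher. The median log2 fold change was -0.35 over the histone genes and -0.17 over all genes tested, and 70 of 76 were negative. For the negative and the unadjusted counts the shares over all genes are not given here. Both C3 libraries were below both OSKM libraries at 29 of 76 genes, against 36% of all genes. The gene that fell was H1f10, an H1 variant outside the clusters that is made independently of replication. It had 67.8 and 90.5 normalized reads in C3, against 172 and 195 in OSKM (log2 fold change -1.21 ± 0.27 SE, limma adjusted p = 0.0174). In the authors' deposited table its FDR is 0.0230, and without OSKM replicate 2 the limma adjusted p was 0.0561. The groups were well apart, and in the C2 comparison H1f10 had 97.5 and 117 normalized reads in C2, against 159 and 179 in OSKM (log2 fold change -0.65, limma adjusted p = 0.114).

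The gene that rose in C3 was the pseudogene H2af-ps2, at 775.5 and 597.8 normalized reads in C3, against 431.6 and 322.7 in OSKM (log2 fold change 0.87 ± 0.25 SE, limma adjusted p = 0.0425). All C3 values were above all OSKM values, but the call was lost without C3 replicate 1 and without either OSKM replicate. The median log2 fold change over the histone genes was -0.68 without C3 replicate 1 and -0.08 without C3 replicate 2, so it moved with the C3 library that was kept. It was -0.27 without OSKM replicate 1 and -0.51 without OSKM replicate 2.

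At the regions given here, taken from those called in C2, the log2 fold change in C3 was smaller in size. Regions chosen for low C2 values against the same OSKM libraries can show a smaller change in another line through that choice alone. H3c13 and H2bc18 had 544.6 and 354.5 normalized reads in C3, against 815.7 and 735.7 in OSKM (log2 fold change -0.82, limma adjusted p = 0.0598). The region of H1f2, H3c3, H2ac5-ps and H2bc3 had 2268 and 1089 normalized reads in C3, against 2352 and 2182 in OSKM (log2 fold change -0.53, limma adjusted p = 0.347). C3 library 1 lay within the OSKM range there and C3 library 2 far below it. Both comparisons use the same OSKM libraries, so they are not independent of each other.

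Counting all regions near the histone genes, 98 were tested in C3 against OSKM, of which 7 were lower and 1 was higher, against 8.52% of all regions called lower. Of the 7 lower ones, 6 were not the highest region of a gene. At the second region of H2bc9 and H3c7, chr13:23542066-23543486, H3K27ac was 71.9 and 58.9 normalized reads in C3, against 141 and 137 in OSKM (log2 fold change -1.08, limma adjusted p = 0.0273). The same region was called in C2, at 57.2 and 52.6 normalized reads in C2, against 130.0 and 126 in OSKM (log2 fold change -1.21, limma adjusted p = 0.0319). In each line the libraries agreed closely there. A region between H2bc12, H4c9 and H2ac11 had 60.2 and 98.2 normalized reads in C3, against 206 and 160 in OSKM (log2 fold change -1.23, limma adjusted p = 0.0288).

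Compared directly, C2 and C3 showed no called difference at any of the 76 genes by limma or by edgeR, with 0.0526% of all genes called lower and 0.0225% called higher by limma. By unadjusted p under 0.05, 14 histone genes were lower in C2 and none was higher, and the shares over all genes are not given here. The median log2 fold change of C2 over C3 was -0.62 over the histone genes and -0.18 over all genes, and it was -0.33 and 0.05 with quantile-normalized values. Both C2 libraries were below both C3 libraries at 16 of 76 genes, against 22.8% of all genes. H1f1 had 230.0 and 52.8 normalized reads in C2, against 418 and 237 in C3 (log2 fold change -1.50, limma adjusted p = 0.253). The C2 libraries were both under the C3 libraries, but only narrowly in the case of C2 library 1. The median over the histone genes was -1.10 without C2 replicate 1 and -0.11 without C2 replicate 2. It was -0.27 without C3 replicate 1 and -0.90 without C3 replicate 2. A change called against OSKM in C2 and not in C3 is not shown by the limma fit to differ between these lines.

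The Hist1 genes lie on chromosome 13 in a block of 19 (21715711 to 21837530), a block of 5 (22035122 to 22043658) and a block of 30 (23531044 to 23764412), with a testis-type pair and a pseudogene beyond. Lower values were not limited to the histone genes. In C2 against OSKM the median log2 fold change of regions was -0.80 in the block of 19, -1.27 in the block of 5 and -1.30 in the block of 30. Regions called lower were 2 of 29, 0 of 6 and 9 of 50 in these blocks, against 5.38% of all regions. Between the blocks, where there are no histone genes, the median was -0.58 and -0.66, with 2 of 43 and 3 of 66 regions called lower. In the 2 Mb flanks the median was -0.12 before the first block and 0.09 after the last. The segments were drawn after the values had been seen and are a description.

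In C3 against OSKM the medians were -0.28, -1.07 and -0.67 in the 3 blocks and -0.74 and -0.69 between them, with 0.18 and 0.23 in the flanks. Regions called lower in C3 were 1 of 30, 2 of 6 and 8 of 50 in the blocks of 19, 5 and 30 genes. Between the blocks they were 8 of 44 and 10 of 71, against 8.52% of all regions. The 99 tested non-histone genes within the clusters had a median log2 fold change of -0.72 in C2, with 11 lower and none higher, close to the 9.89% of all genes called lower. In C3, 32 of 102 such neighbours were lower, against 8.82% of all genes, and none was higher, with a median of -0.67. At the histone genes themselves the corresponding median was -0.35 in C3, and over all 98 tested regions near them it was -0.53. Over the other genes of chromosome 13 the median was -0.24 in C2 and -0.03 in C3, each against OSKM.

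**Figure D4:**
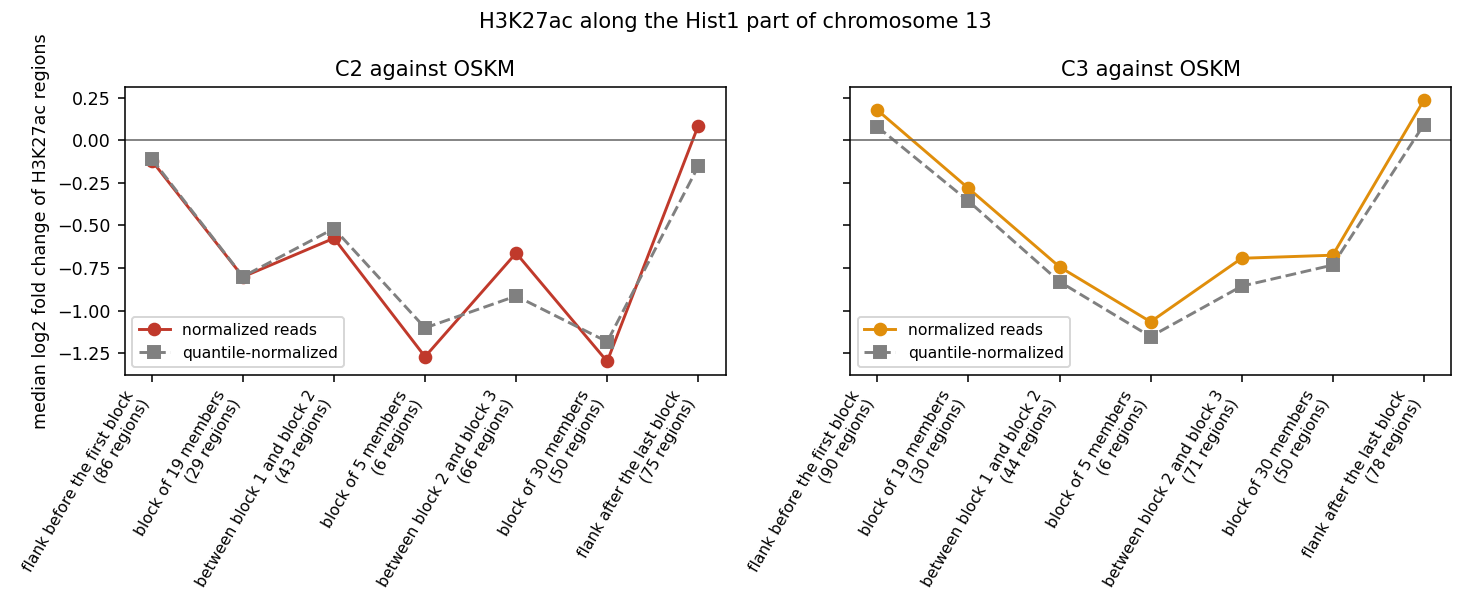
Median log2 fold change of H3K27ac regions (y axis) in 7 consecutive segments of the Hist1 part of chromosome 13 (x axis, with the number of tested regions), for C2 against OSKM (left) and C3 against OSKM (right). Solid lines use the normalized reads and dashed lines the quantile-normalized values. The blocks of genes and the stretches between them lie below 0 under both scalings, and the flanks lie near 0.

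The genes that switch on or process histone transcripts were examined as a list of 33. In C2 against OSKM, 8 were lower and none was higher, against 9.89% and 3.05% of all genes. The median log2 fold change was -0.55, and -0.16 with quantile-normalized values. On chromosome 8, which holds no histone gene, the median log2 fold change over all regions was -1.34 in C2 and -1.09 in C3, against 0.04 and 0.08 on the other chromosomes, and 5 of the 8 genes are there. Away from chromosome 8, 3 of 28 fell in C2 (Slbp, Npat and Nfya), against 7.09% of all genes. Npat, the activator of histone transcription, had 132 and 101 normalized reads in C2, against 246 and 247 in OSKM (log2 fold change -1.09, limma adjusted p = 0.0286). Slbp, whose protein binds the stem-loop, had 336 and 301.5 normalized reads in C2, against 594 and 638 in OSKM (log2 fold change -0.95, limma adjusted p = 0.0257). In both genes the groups were widely separated. Casp8ap2 (FLASH), a partner of NPAT in histone locus bodies, had 449 and 340.0 normalized reads in C2, against 395 and 408 in OSKM, and the groups overlapped (log2 fold change -0.04).

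In C3 against OSKM, 5 of the 33 were lower, all on chromosome 8, and 1 was higher, against 8.82% and 8.84% of all genes. A single higher gene of 33 is below the share over all genes. The gene that rose was Ccne2, a cyclin E that activates CDK2, at 230.0 and 184 normalized reads in C3, against 81.7 and 123 in OSKM (log2 fold change 1.03, limma adjusted p = 0.0376). Npat had 181.5 and 138.5 normalized reads in C3, against 267 and 269 in OSKM (log2 fold change -0.75, limma adjusted p = 0.0552). All C3 values were below all OSKM values for Npat and above them for Ccne2.

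Further lists were counted in the same way, against 9.89% of all genes called lower in C2 and 7.09% away from chromosome 8. Of 20 histone chaperones, which carry histones to DNA, 6 were lower in C2 than in OSKM and none was higher (median log2 fold change -0.68), 5 of them away from chromosome 8. Of 11 replication-independent variants, 4 were lower (median -0.70), among them H2ax, which marks DNA breaks, at 367 and 330 normalized reads in C2, against 680 and 669 in OSKM (log2 fold change -0.95, limma adjusted p = 0.0250). This list holds H1f0 and H1f10, which are also among the 76. Of 45 DNA replication genes, 6 were lower (median -0.49), of which only Rpa1 (1 of 39) lies off chromosome 8. Of 16 housekeeping genes, 3 were lower (median -0.66). With quantile-normalized values the C2 medians moved toward that of all genes (-0.06). They were -0.12 for chaperones, -0.45 for variants, -0.17 for replication genes and -0.17 for housekeeping genes. In C3 against OSKM the lower counts were 2 of 20 chaperones, 2 of 11 variants, 3 of 45 replication genes and 2 of 16 housekeeping genes, with none higher, against 8.82% of all genes. Most members of each list were not called, and no list was tested as a whole.

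Markers of cell state also differed between the lines, and their part in the histone result was not tested. Among 10 pluripotency markers, 6 were lower in C2 than in OSKM, against 9.89% of all genes, with summed levels of 22950 and 17070 normalized reads in C2 and 41310 and 40840 in OSKM. Their median log2 fold change was -1.05 in C2, but -0.21 with quantile-normalized values, against -0.33 and -0.06 over all genes. In C3, 1 was lower, against 8.82% of all genes, and it lies on chromosome 8, as does 1 of the 6. Among 10 endoderm markers, 4 were higher in C2 and 8 were higher in C3, each relative to OSKM, against 3.05% and 8.84% of all genes. In C2 the endoderm median log2 fold change was 0.93, and 1.275 with quantile-normalized values. Their summed levels were 4057 and 2352 normalized reads in C2, against 1339 and 1829 in OSKM, and 7645 and 4566 in C3, against 1464 and 1991 in OSKM. Of 10 fibroblast markers, Col1a2, S100a4 and Twist2 had no tested region and none of the other 7 was called in C2. Their sums were 4580 and 3272 normalized reads in C2 and 7353 and 7268 in OSKM, of which Loxl1 made up 4316 and 3012 in C2 and 7176 and 6996 in OSKM.

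Histone genes with and without octamer and CCAAT matches had similar changes in C2. In C2 against OSKM the median log2 fold change was -1.10 for the 14 genes with an octamer in the promoter and -1.08 for the 52 without. In C3 against OSKM these medians were -0.52 and -0.35. For the CCAAT box in C2 against OSKM they were -1.10 with and -0.97 without. The 14 genes with an octamer used 11 distinct regions, shared in part with genes that lack it, so these medians are a description.

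A minority of the histone genes had H3K9me3 nearby. Of the 76 genes, 11 had an H3K9me3 region within 2500 bp (7 distinct regions, all tested), and for 1 gene, H1f11-ps, the region overlapped the gene. Called H3K9me3 peaks lay near 5 and 7 genes in the C2 libraries, 10 and 4 in the C3 libraries, and 12 and 10 in the OSKM libraries. H3K27ac peaks lay near 72 and 58 genes in C2, 75 and 72 in C3, and 74 and 75 in OSKM. C2 library 2 had the fewest H3K27ac peaks, 76915 against 86571 to 116945 in the other 5 libraries.

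In C2, H3K9me3 fell at 2 of the 11 tested histone genes (1 of 7 distinct regions). Of the 11017 genes with a tested H3K9me3 region, 5.98% were called lower and 0.508% higher. The 2 genes are H2bc12 and H4c9, which share a region between them at chr13:22038512-22039129. It had 1.15 and 1.39 normalized reads in C2, against 43.5 and 83.0 in OSKM. The C2 values are the table's minimum of 1 read in each library, which may stand for no reads, against 51 and 113 recovered reads in OSKM. The call had a limma adjusted p of 0.00417, and no fold is given because C2 is at that minimum. C3 had 18.96 and 74.4 normalized reads at this region, against 48.5 and 90.8 for OSKM in that table, and was not called. The C2 call was lost without OSKM replicate 2, where none of the 76 was called.

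In C3, H3K9me3 fell at 3 of the 11 tested histone genes (2 of 7 distinct regions). Of the 10995 genes with a tested H3K9me3 region, 17.1% were called lower and 1.5% higher. H2bc4 and the testis-type H1f6 share a region at chr13:23692732-23693426 that had 6.89 and 7.59 normalized reads in C3, against 68.4 and 65.1 in OSKM. Replicates were close together in both lines and the groups were far apart (limma log2 fold change -3.04 ± 0.51 SE, adjusted p = 0.00284). In C2 the same region had 27.5 and 34.9 normalized reads, against 61.4 and 59.5 in OSKM (log2 fold change -0.94, limma adjusted p = 0.209). H1f11-ps had 63.8 and 62.3 normalized reads in C3, against 116 and 115 in OSKM (log2 fold change -0.86, limma adjusted p = 0.0430, edgeR adjusted p = 0.0578). Without either OSKM replicate none of the 3 was called, and without C3 replicate 2 there were 5 calls.

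**Figure D5:**
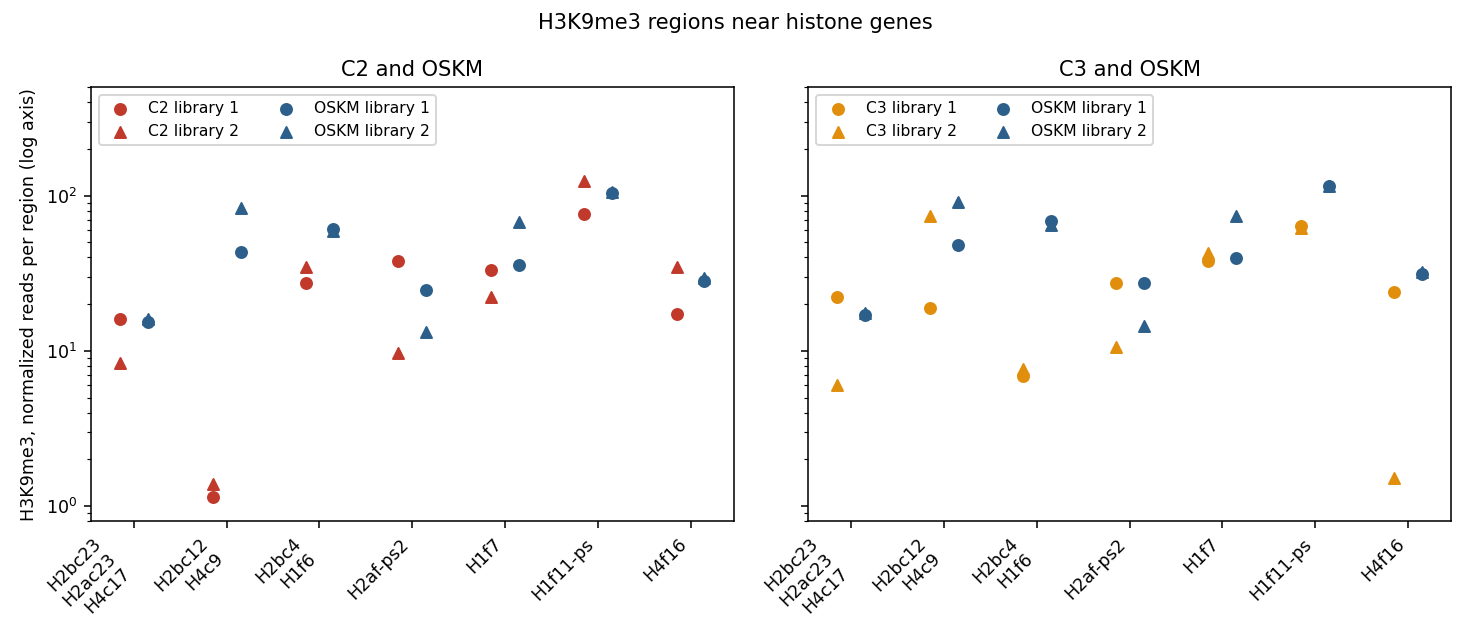
H3K9me3 in normalized reads per region (y axis, log scale) for each library at the 7 regions near histone genes (x axis, named by the genes that share them), for C2 and OSKM (left) and C3 and OSKM (right), each in its own table's scale. C2 lies at the table's minimum at H2bc12 and H4c9, and C3 lies near 7 at H2bc4 and H1f6, each with both OSKM libraries above 40.

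Between C2 and C3, limma and edgeR called none of the 11 genes for H3K9me3, with 2 lower and 3 higher in C2 by unadjusted p under 0.05 in limma. Over all genes with a tested H3K9me3 region, 0.119% were called lower and 0.191% higher by adjusted p. The shares by unadjusted p are not given here. The authors' deposited table calls 4 of the 11. It calls H2bc12 and H4c9 (FDR 7.558e-05), where C2 is at the table's minimum, and gives H2bc4 and H1f6 a log2 fold change of 2.26 (FDR 0.00686). The values were 0.998 and 1.23 normalized reads in C2 against 15.1 and 58.0 in C3 at H2bc12 and H4c9, and 23.96 and 30.8 in C2 against 5.50 and 5.92 in C3 at H2bc4 and H1f6. The groups did not overlap at either region.

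No HA peak lay within 2500 bp of any of the 76 histone genes in the 2 C2 libraries at day 20 or in the 2 Empty libraries. Over all genes, 4.59% and 9.82% had such a peak in C2, and 4.29% and 6.13% in Empty. A peak was counted near the whole extent of a gene, most histone genes are short, and these shares were not matched for gene length. Whether the histone genes have fewer HA peaks than like genes was not tested. The C2 libraries had 12376 and 44939 peaks and the Empty libraries 10666 and 22632. The nearest HA peak to a histone gene was 5392 bp from H1f10 and 2684 bp from H1f0 in the C2 libraries, and 3752 bp and 8774 bp from H1f10 in the Empty libraries. After removal of duplicates the C2 libraries kept 2506011 and 3896935 tags and the Empty libraries 1707437 and 1629753, and what strength of binding these numbers allow to be called was not tested.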

How the data were processed

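Per the submitters' processing notes, the tools were DiffBind 1.16.2, SAMtools 1.3, Bowtie2 2.2.5 and CASAVA 1.8.2, and the build was mm10. Per the file headers, peaks were called per library against an input with MACS 2.1.0.20150731 (HA: 2.1.1.20160309) at a q-value of 0.01, keeping at most 1 tag per position. In the peak files the authors deposited a signal (pileup), -log10 p- and q-values and a fold enrichment (ratio), which were used to describe peaks. Each of the 6 region tables the authors deposited holds 2 lines with 2 libraries each, the signal as normalized reads, log2 fold changes, and p-values with FDR. The sources used here do not say if input reads were taken off. Whole reads were recovered from 100% of values (tolerance 1e-06), and the minimum is 1 read.

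Regions were fitted in each table on all rows with limma 3.58.1 (R 4.3.3) with a trend on log2(normalized reads + 1), leaving out the lowest 25% by mean, with a call at 0.05 after Benjamini-Hochberg adjustment. edgeR 4.0.16 was run on recovered reads. Reads in regions per H3K27ac library ranged over 7033486 to 17649231, and per H3K9me3 library over 3412599 to 8548902. Replicate origin is unlabelled, so p-values measure the spread between these libraries, which may be technical. Intervals cover counting error only. Genes took RefSeq GRCm38.p6 extents and the region with the highest mean within 2500 bp. Named were the highest 2 and the lowest genes of each class, up to 5 called per direction and comparison, and the testis-type genes. The regions of H1f1, H2bc6, H4c14 and the further regions near genes were chosen after their values were seen. The members and lists were chosen with earlier results of these data known. The fit was tested on simulated data. Tables were normalized separately, so tests stay within a table. Python 3.11.15, NumPy 2.4.6, pandas 2.3.3, SciPy 1.17.1, matplotlib 3.10.9 and the R package data.table (version 1.17.8) were used.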

Additional observations from a re-analysis of the deposited data

How the results depend on the processing

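Counts of called histone genes changed with the processing in many settings. Of 152 alternative values, 119 stayed within 1.5 times the main count or 1 SD of the main median, whatever their sign. That SD, between replicates, was 0.34 to 0.81, so counts and medians were held to unlike rules and are not compared. Medians with no filter or with a replicate block equal the main ones by construction and are among the 119. For H3K27ac in C2 against OSKM, 22 genes were called, against 49 with no filter, 0 with quantile-normalized values, 58 with libraries centred to equal median, 36 with edgeR, 3 by the authors' deposited FDR and 11 to 69 with a library left out. In C3 against OSKM there were 2, against 4 with a pseudocount of 8, 5 quantile-normalized, 4 centred, 4 with edgeR, 1 with the members of Hist1 to Hist4 only (chosen after seeing the data) and 0 to 29 with a library left out. In C2 against C3 there were 0, against 6 with no filter and 0 to 24 with a library left out. For H3K9me3, calls were 2, 3 and 0, against 0 and 1 for regions that overlap the gene in C2 and C3 against OSKM, 2 with no filter and 4 by the authors' deposited FDR in C2 against C3, and 0 to 4, 0 to 5 and 0 to 0 with a library left out. Medians without a library ranged over -1.46 to -0.57, -0.68 to -0.08 and -1.10 to -0.11 for H3K27ac (C2 against OSKM, C3 against OSKM, C2 against C3), and over -0.84 to -0.37, -1.38 to -0.49 and -0.35 to 0.97 for H3K9me3. The last median was 0.98 for overlapping regions. Medians kept their sign in 71 of 75 alternatives, and the 4 others were of H3K9me3 in C2 against C3. Those 71 include the settings that leave the median unchanged. A lone library is assumed to vary like the other line. The shares of all genes called with a library left out are not given here, so those counts describe the setting and not the histone genes. The cause of the changes with processing was not tested.

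Replicate numbers give 2 pairs a table. Same-numbered libraries deviated together with correlations of -0.05, -0.04 and 0.35 for H3K27ac and 0.00, 0.04 and 0.11 for H3K9me3 (C2 against OSKM, C3 against OSKM, C2 against C3), and 2 pairs do not show whether the numbers pair the libraries. Nothing in the labels does. With a replicate block, 55, 4 and 47 genes were called for H3K27ac, and 2, 3 and 2 for H3K9me3. The 47 were all lower in C2 than in C3, in the comparison whose libraries deviated together most. Over all H3K27ac regions the block called 9583 lower and 3979 higher in that comparison, against 31 and 28 without it. In C2 against OSKM it called 8864 lower and 8175 higher, against 5434 and 5257 without it.

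Of the called H3K27ac regions, 49.2% were higher in C2 than in OSKM, against 62.2% quantile-normalized and 37.6% centred. In C3 it was 61.3%, against 50.5% centred. For H3K9me3 it was 11.8% in C2, against 28.0% quantile-normalized, and 18.95% in C3, against 40.1% quantile-normalized.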
